A study of Rattus norvegicus with 9 samples.

Results

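The 6 genes were the family 1 cytochromes P450 Cyp1a1, Cyp1a2 and Cyp1b1, the Ah receptor gene Ahr, its partner gene Arnt, and Tiparp, a target gene of the receptor that feeds back on it. All probe sets that the array annotation gave to these symbols were taken, and a probe set is the group of short array probes that reads 1 transcript or a few. They made up 8 of the 31042 probe sets and 6 of the 14217 named genes. Cyp1a1 (1370269_at), Cyp1a2 (1387243_at), Cyp1b1 (1368990_at) and Arnt (1369244_at) had 1 probe set each, Ahr had 1369146_a_at and 1369147_at, and Tiparp had 1374446_at and 1385407_at. The genes were chosen by name with group differences on these same 9 arrays already known, so the differences of the 6 genes between groups are given as a description. The p-values printed for these differences are part of that description and are not taken as a test.

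The livers came from 9 male GK (Goto-Kakizaki) rats, an inbred line that becomes diabetic without treatment, with 1 array per rat. The rats were bought at 5 weeks of age, kept for 7 weeks until diabetes had set in, and then divided. Control 1, 2 and 3, labelled undepression, were fed normally for 8 weeks. CUMS 1, 2 and 3, labelled Major Depression, and CUMS 4, 5 and 6, labelled Mild Depression, had 8 weeks of chronic unpredictable mild stress (CUMS), in which a singly housed rat meets 1 changing stressor a day. Every rat, controls included, was diabetic and had received the glucose-lowering drug repaglinide by gavage at 6 mg/kg before its liver was taken, and no rat without diabetes was in the series. Both CUMS groups were compared with the same 3 control rats, so those comparisons are not independent. Whole liver was measured, and there fewer cells of a type and less RNA per cell cannot be told apart.

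The Ah receptor is a ligand-activated transcription factor of the bHLH-PAS family, which waits in the cytoplasm in a complex with the chaperone Hsp90. Once a planar aromatic ligand, such as a dioxin or a tryptophan product, has bound, it moves to the nucleus, pairs with Arnt and binds the xenobiotic response element, whose core letters are GCGTG. In liver it is best known for switching on Cyp1a1, an enzyme that oxidises polycyclic aromatic compounds and is low in unexposed liver. Cyp1a2, which clears caffeine and activates aromatic amines, is made at rest in hepatocytes near the central vein. Cyp1b1 is an extrahepatic relative that is made largely in mesenchymal cells. Tiparp adds ADP-ribose to proteins, the Ah receptor among them, and curbs its activity.

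Promoters were available for 5 of the 6 genes, all but Cyp1a1, for which no motif was searched. They were RefSeq sequence on the rat build GRCr8 from 250 bases before to 50 bases from the start of the gene on. 3 are shown because they differ in how many receptor motifs they hold. Capitals mark the core GCGTG, or CACGC where it lies on the opposite strand, and the longer form TNGCGTG where it was found. The sequences run 5′ to 3′ on the strand of the gene.
Cyp1a2, chr8:66978100-66978399, minus strand: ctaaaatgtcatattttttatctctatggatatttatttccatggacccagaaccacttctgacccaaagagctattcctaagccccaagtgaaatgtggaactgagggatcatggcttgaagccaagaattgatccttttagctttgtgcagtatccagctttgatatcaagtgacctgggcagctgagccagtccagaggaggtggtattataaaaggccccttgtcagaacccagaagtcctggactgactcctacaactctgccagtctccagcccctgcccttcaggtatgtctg
Cyp1b1, chr6:21094315-21094614, plus strand: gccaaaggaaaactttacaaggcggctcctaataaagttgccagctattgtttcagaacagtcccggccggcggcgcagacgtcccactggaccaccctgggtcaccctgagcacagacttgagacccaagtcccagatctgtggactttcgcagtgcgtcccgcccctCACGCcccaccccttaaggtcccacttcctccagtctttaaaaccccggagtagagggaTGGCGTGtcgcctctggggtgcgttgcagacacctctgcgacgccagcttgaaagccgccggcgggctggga
Tiparp, chr2:152063519-152063818, plus strand: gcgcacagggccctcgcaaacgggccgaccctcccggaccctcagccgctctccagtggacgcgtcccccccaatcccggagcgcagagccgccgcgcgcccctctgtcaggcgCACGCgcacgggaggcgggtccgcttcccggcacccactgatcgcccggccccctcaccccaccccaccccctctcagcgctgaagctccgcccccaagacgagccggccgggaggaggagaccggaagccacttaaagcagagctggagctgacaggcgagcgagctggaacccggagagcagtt

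Both motifs were searched on both strands, and the longer one contains the core. The Cyp1b1 window held the longer form 22 bases before the start, with its core at 20 bases, and a further core on the opposite strand at 81 bases. The Tiparp window held 1 core, 136 bases before the start on the opposite strand, and the Arnt window 1 core at 42 bases on the gene's strand. Neither motif was found in these windows of Cyp1a2 and Ahr, and bases further out were not searched, so sites there stay unknown. Of all 27457 promoters in the table, 31.1% held the core and 5.12% the longer form, so a core alone is common. Cyp1a1 and Cyp1a2 are neighbours on the chromosome, between Csk and Edc3.

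The values are signals, brightness on a linear scale, and only values of the same probe set are set side by side. 1 array stood apart. Control 3 had a median correlation of 0.951 with the other arrays, against 0.965 to 0.972 for the remaining ones, and read highest of all arrays in 11 of 11 tested stellate cell and fibroblast markers and 4 of 4 tested bile duct markers. Over all 18625 probe sets tested it read highest in 20.1%. Summed over the stellate cell and fibroblast markers, the signal lay between 8022 and 33962 in the controls, 5135 and 6139 in CUMS 1 to 3, and 6554 and 8122 in CUMS 4 to 6. The bile duct markers summed to between 1028 and 9230, 693 and 1228, and 897 and 1106 in the same order. Without control 3, 0 of 11 stellate cell and fibroblast markers lay above control in CUMS 1 to 3 (median log2 difference -0.30). In CUMS 4 to 6 it was 3 of 11 (median -0.24). Of the 4 bile duct markers, 1 lay above control in each. Over all probe sets 49.7% and 47.8% did. Control 3 was also highest in 5 of 7 Kupffer cell and macrophage markers and in the leukocyte gene Ptprc. It was lowest in 10 of 13 periportal genes, 5 of 12 perivenous genes and 3 of 7 hepatocyte markers. The same held for 4 of 5 genes that pass electrons to P450 enzymes and 6 of 10 tryptophan and kynurenine enzymes. Over all probe sets tested it read lowest in 14.4%. The macrophage markers summed to between 18752 and 23681 in control, 13799 and 19954 in CUMS 1 to 3, and 14468 and 22928 in CUMS 4 to 6, and without control 3, 0 of 7 lay above control in either CUMS group. Their part in the results was not tested. Albumin, the main hepatocyte product, read 20382 to 26932 in control. It read 17128 to 22976 in CUMS 1 to 3 and 25610 to 29583 in CUMS 4 to 6. Of 7 tested hepatocyte markers, 1 lay above control in CUMS 1 to 3, where 48.9% of all probe sets did. In CUMS 4 to 6 it was 7, against 46.3% of all, and 4 without control 3, against 47.8%. The 3′ to 5′ ratio of the beta-actin control probes, which goes up as RNA is broken or copied short, was lowest in control 3 (2.51), highest in CUMS 2 (5.23) and CUMS 4 (4.96), and 3.18 to 3.73 on the remaining arrays.

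Cyp1a1, the classical readout of an active Ah receptor, had the widest range of the 8 probe sets. Its signal was 305, 215 and 73.6 in control 1, 2 and 3, against 324, 422 and 259 in CUMS 1, 2 and 3 and 761, 288 and 1059 in CUMS 4, 5 and 6. 4 of the 6 CUMS rats lay above every control, while CUMS 3 and CUMS 5 lay below control 1, so neither CUMS group was clear of the controls. The highest array was 14.4-fold above the lowest. Group means ± SD (n = 3) were 198 ± 117 in control, 335 ± 81.9 in CUMS 1 to 3 and 703 ± 389 in CUMS 4 to 6.

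On the log2 scale Cyp1a1 was 1.86 (SE 0.54) higher in CUMS 4 to 6 than in control, or 3.64-fold, with a 95% confidence interval of 0.67 to 3.06. That interval is not adjusted for the number of probe sets, and after adjustment the limma p was 0.744. In CUMS 1 to 3 it was 0.96 (SE 0.54) higher, or 1.94-fold, with an interval of -0.23 to 2.15 that includes 0. Between the 2 CUMS groups, CUMS 1 to 3 minus CUMS 4 to 6, the difference was -0.90 with an interval of -2.10 to 0.29. Control 3, the array with the connective tissue and bile duct markers, also gave the lowest Cyp1a1 signal. Without it the difference from control was 1.26 in CUMS 4 to 6 and 0.36 in CUMS 1 to 3, and without both control 3 and CUMS 6 the former was 0.87. The part of tissue makeup in the Cyp1a1 values was not tested.

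Cyp1a2 behaved less evenly. Its signal was 11866, 14715 and 11240 in control 1, 2 and 3, 10731, 13068 and 15981 in CUMS 1, 2 and 3, and 15119, 9614 and 30406 in CUMS 4, 5 and 6. CUMS 6 was the only array above 15981, and CUMS 5 of the same group was the lowest of all 9. Group means ± SD (n = 3) were 12607 ± 1850, 13260 ± 2630 and 18380 ± 10800. The log2 difference from control was 0.39 (SE 0.33) in CUMS 4 to 6 and 0.06 (SE 0.33) in CUMS 1 to 3, and both intervals include 0 (-0.33 to 1.11 and -0.66 to 0.79). Without CUMS 6 the first of them became -0.05, so it rested on 1 liver.

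**Figure D1:**
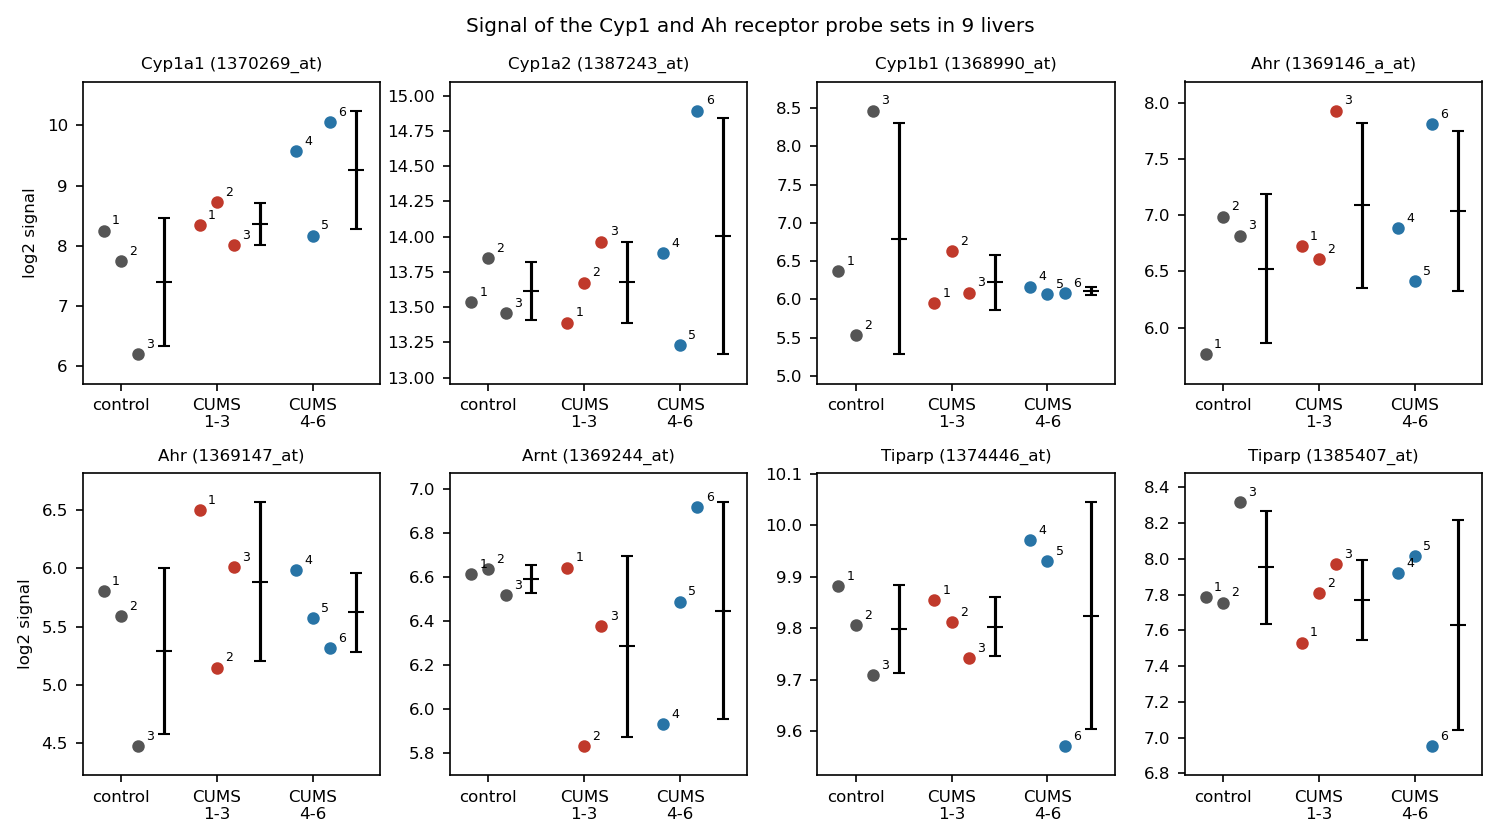
Log2 signal of each of the 8 probe sets in 9 livers, with 1 panel per probe set and its own vertical scale. Points are rats, numbered as in the text (control in grey, CUMS 1 to 3 in red, CUMS 4 to 6 in blue), and bars are the mean ± SD of log2 signal in each group (n = 3). For Cyp1a1, 4 of the 6 CUMS rats lie above every control, and for Cyp1b1 control 3 lies far above the other 8.

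Cyp1a1 and Cyp1a2 were both highest in CUMS 6, but they did not closely follow each other through the other livers. CUMS 4 had the next highest Cyp1a1 (761) and a Cyp1a2 of 15119, below only CUMS 6 and CUMS 3. CUMS 3 had a Cyp1a1 of only 259 with a Cyp1a2 of 15981, and control 2 had 215 with 14715. Over 9 rats the Pearson correlation of their log2 signals was 0.63 (exact permutation p = 0.0915, adjusted over the 15 pairs of the 6 genes 0.343) and Spearman's rho was 0.37 (exact permutation p = 0.336, adjusted 0.84). Without control 3 and CUMS 6, the arrays farthest from the Cyp1a1 median, r was 0.17, so the relation rested on those livers. With the group means removed it was 0.60.

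**Figure D2:**
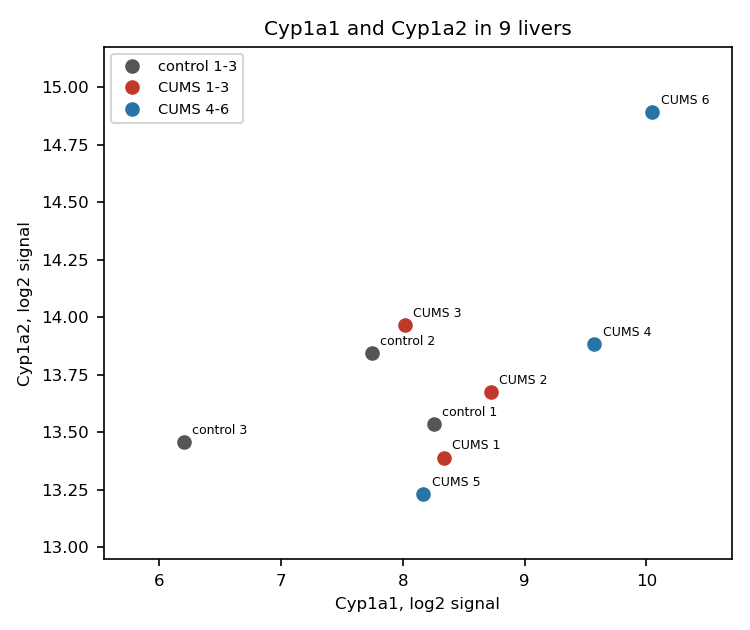
Log2 signal of Cyp1a1 (horizontal) and Cyp1a2 (vertical) in 9 livers, with 1 point per rat coloured by group. CUMS 6 is highest for both genes and control 3 lowest for Cyp1a1, and between these the points show little slope (r = 0.17 without them).

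Cyp1b1, the relative made mainly outside hepatocytes, read 82.9, 46.4 and 353 in control 1, 2 and 3, then 61.9, 98.9 and 68.0 in CUMS 1, 2 and 3 and 71.8, 67.3 and 67.8 in CUMS 4, 5 and 6. Control 3 was the highest of the 9, and controls 1 and 2 lay among the CUMS rats or below them. Means ± SD (n = 3) were 161 ± 167, 76.2 ± 19.8 and 69.0 ± 2.45. The log2 difference from control was -0.57 (SE 0.60) in CUMS 1 to 3 and -0.68 (SE 0.60) in CUMS 4 to 6, and it became 0.27 and 0.15 without control 3. In that array the collagen gene Col1a1 read 2493, against 97.4 to 160 in the other arrays, and the bile duct and matrix gene Spp1 read 7740, against 124 to 206. Over the 11 tested stellate cell and fibroblast genes, the mean log2 signal of control 3 lay 1.21 above the mean of the controls, and that of the other arrays between -1.18 and -0.58. The part of these cells in the Cyp1b1 signal was not tested.

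**Figure D3:**
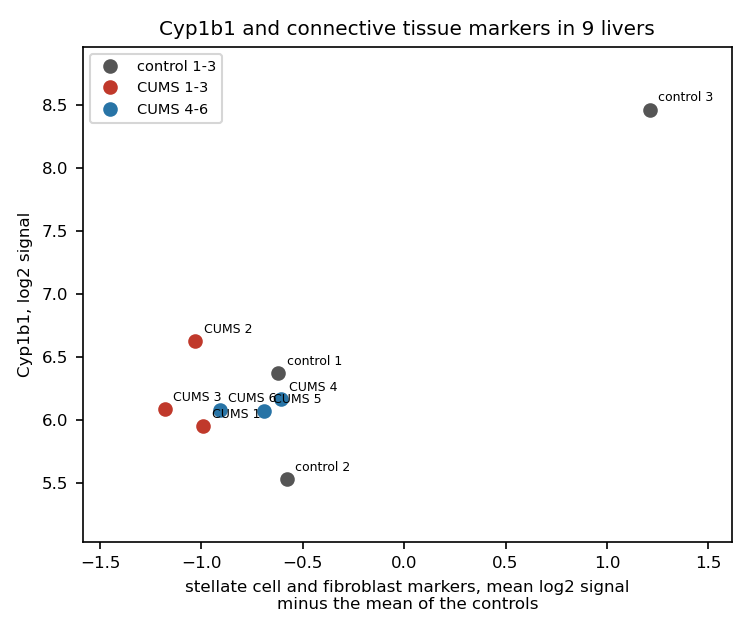
Log2 signal of Cyp1b1 (vertical) against the mean log2 signal of 11 stellate cell and fibroblast genes relative to the mean of the controls (horizontal), with 1 point per rat coloured by group. Control 3 stands alone at the upper right, at 1.21 on the horizontal axis, and the other 8 rats lie between -1.18 and -0.58.

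The receptor itself was read by 2 probe sets. Ahr 1369146_a_at, whose probes match alternative transcripts of the gene, read 54.3, 127 and 113 in control 1, 2 and 3, 106, 97.5 and 244 in CUMS 1, 2 and 3, and 118, 85.3 and 225 in CUMS 4, 5 and 6. CUMS 3 and CUMS 6 stood above the rest, and the other 4 CUMS rats lay within the range of the controls. Ahr 1369147_at read 55.9, 48.1 and 22.3 in control, 90.2, 35.5 and 64.4 in CUMS 1, 2 and 3, and 63.3, 47.6 and 39.8 in CUMS 4, 5 and 6. It did not pass the filter on low signal, and there CUMS 6 was not high and CUMS 1 was highest. Across the 9 arrays the 2 Ahr probe sets correlated at r = 0.00 and rho = 0.15, so they gave no common order of the livers.

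The log2 difference of 1369146_a_at from control was 0.57 (SE 0.47) in CUMS 1 to 3 and 0.52 (SE 0.47) in CUMS 4 to 6, and both 95% intervals include 0 (-0.47 to 1.61 and -0.53 to 1.56). Without CUMS 3 the first was 0.15 and without CUMS 6 the second was 0.13. Of the 15 pairs of member genes, Ahr by this probe set and Cyp1a2 had the highest correlation over 9 rats, at r = 0.72 (exact permutation p = 0.0311, adjusted 0.268) and rho = 0.78 (exact permutation p = 0.0172, adjusted 0.258). It was 0.63 without CUMS 5 and CUMS 6 and 0.75 with the group means removed, and 0 of the 15 pairs passed the adjustment.

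Arnt, the partner that the receptor shares with the hypoxia factors, read 98.0, 99.6 and 91.6 in control 1, 2 and 3, 100, 57.0 and 83.2 in CUMS 1, 2 and 3, and 61.1, 89.8 and 121 in CUMS 4, 5 and 6. The CUMS rats spread to both sides of the closely grouped controls. The lowest values were in CUMS 2 and CUMS 4, the arrays with the highest beta-actin ratios, and the part of RNA quality in them was not tested. The log2 difference from control was -0.31 (SE 0.33) in CUMS 1 to 3 and -0.14 (SE 0.33) in CUMS 4 to 6. Without CUMS 2 the first was -0.08, and without CUMS 4 the second was 0.11.

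Tiparp, which the receptor induces and which restrains it, was the steadiest member by 1374446_at. It read 943, 895 and 837 in control 1, 2 and 3, 926, 899 and 856 in CUMS 1, 2 and 3, and 1004, 976 and 761 in CUMS 4, 5 and 6. The log2 difference from control was 0.00 (SE 0.13, 95% interval -0.29 to 0.30) in CUMS 1 to 3 and 0.03 (SE 0.13, 95% interval -0.27 to 0.32) in CUMS 4 to 6. CUMS 6, where Cyp1a1 and Cyp1a2 were highest, had the lowest Tiparp signal of the 9 livers.

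The second Tiparp probe set, 1385407_at, read 221, 216 and 319 in control, 185, 224 and 251 in CUMS 1, 2 and 3, and 242, 259 and 124 in CUMS 4, 5 and 6. CUMS 6 was again lowest, and control 3 was highest. Its log2 difference from control was -0.18 (SE 0.29) in CUMS 1 to 3 and -0.32 (SE 0.29) in CUMS 4 to 6. Without CUMS 6 the latter was 0.01. The 2 Tiparp probe sets correlated at r = 0.46 and rho = 0.17 over 9 arrays.

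**Figure D4:**
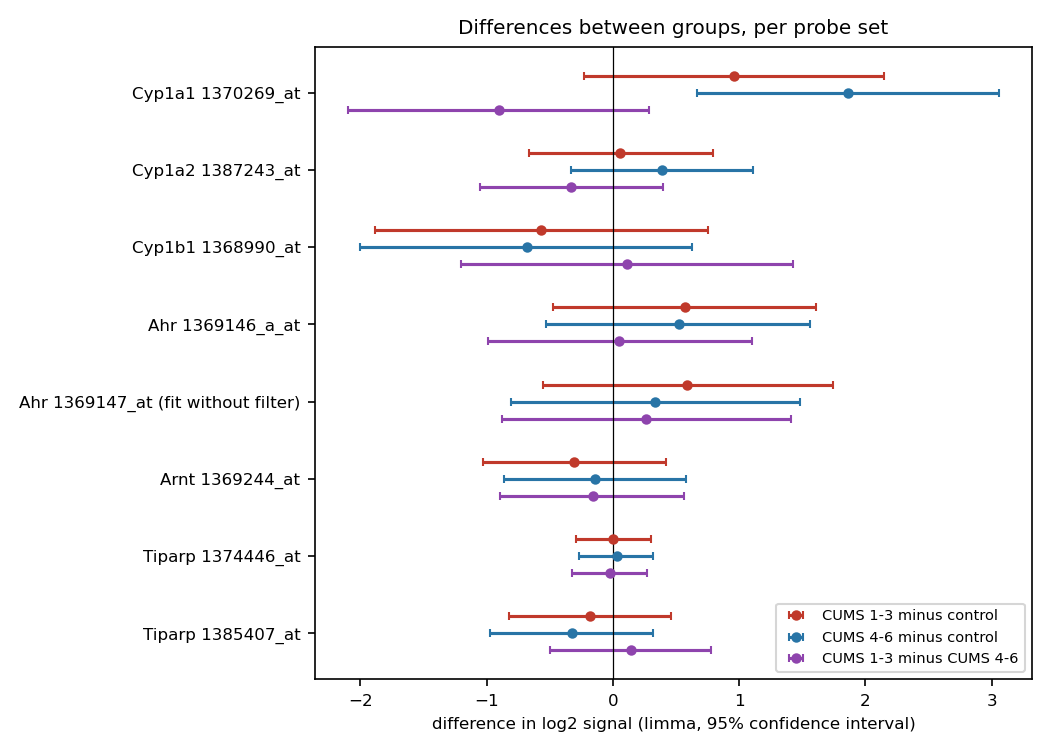
Differences in log2 signal between groups for the 8 probe sets, with 95% confidence intervals from limma (3 rats per group, all 9 arrays fitted together). Red is CUMS 1 to 3 minus control, blue CUMS 4 to 6 minus control and purple CUMS 1 to 3 minus CUMS 4 to 6. The Cyp1a1 interval for CUMS 4 to 6 (0.67 to 3.06) is the only one that leaves out 0, and the Tiparp 1374446_at intervals are the narrowest. The intervals are a description and are not adjusted for the number of probe sets. None of the 8 probe sets had a limma adjusted p under 0.05.

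The counts over the 7 member probe sets that passed the filter are set here against those over all 18625 tested, and nothing is read from them, since the members were chosen with these contrasts known. The threshold for a call was an adjusted p (Benjamini-Hochberg, limma) under 0.05. For CUMS 1 to 3 against control, 0 of 7 members and 0% of all probe sets were called, and 0 members against 6.76% reached an unadjusted limma p under 0.05. The test that the methods name (an analysis of variance per probe set), after the same adjustment, called 0 members and 0.00537% of all, and 0 members against 11.6% had groups that did not overlap. For CUMS 4 to 6 against control, limma called 0 members and 0% of all, the methods' test called 0 members and 0% of all, 1 member (Cyp1a1) against 6.28% had an unadjusted limma p under 0.05, and 0 members against 11.6% did not overlap.

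For all 6 CUMS rats against control, both tests called 0 members and 0% of all after adjustment, Cyp1a1 alone against 7.93% had an unadjusted limma p under 0.05, and 0 members against 3.68% did not overlap. There the log2 difference of Cyp1a1 was 1.41 (SE 0.47), or 2.66-fold, with a 95% interval of 0.38 to 2.44. It was 0.81 without control 3 and 0.61 without control 3 and CUMS 6. For CUMS 1 to 3 against CUMS 4 to 6, both tests called 0 members and 0% of all, 0 members against 2.85% had an unadjusted limma p under 0.05, and 0 against 9.11% did not overlap. Without adjustment the methods' test put 0 of 7 members under 0.05 in each of the 4 comparisons, against 5.25%, 5.33%, 7.7% and 4.08% of all probe sets in the order given here.

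Of the other genes reported to be induced through the Ah receptor, the 10 tested showed no common direction. Of the 15 listed, 12 had a probe set of their own and 10 passed the filter. Ugt1a6, Ugt1a7c and Gsta2 were read only by probe sets shared with other genes. They were left out, so nothing is said of them here. Of the 10 tested, 0 were called in any comparison by limma or by the methods' test. At an unadjusted limma p under 0.05, 0 passed in CUMS 1 to 3 and 1 in CUMS 4 to 6, against 6.76% and 6.28% of all probe sets. In CUMS 1 to 3, 4 of 10 lay above control, and in CUMS 4 to 6 5 of 10, where 48.9% and 46.3% of all did. The median log2 differences were -0.04 and -0.01, against -0.006 and -0.021 over all probe sets. Ahrr, the repressor that the receptor induces, read between 1.66 and 13.4 and Aldh3a1, an aldehyde dehydrogenase, between 5.49 and 59.8. Both were under the filter.

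Ugdh, which makes the UDP-glucuronic acid that glucuronidation uses, was that gene. It read 4610, 4354 and 4778 in control, 4889, 4369 and 4520 in CUMS 1, 2 and 3, and 5707, 5453 and 5392 in CUMS 4, 5 and 6. All 3 CUMS 4 to 6 rats lay above the other 6, and 11.6% of all probe sets had no overlap between CUMS 4 to 6 and control. The log2 difference was 0.27 (SE 0.09, limma adjusted p = 0.744), so it was not called. Nqo1, a quinone reductase that the receptor shares with Nrf2, was -0.43 and -0.29 (limma adjusted p = 0.769 and 0.865), with signals of 3127 to 5016 in control and 2613 to 4321 in the 6 CUMS rats. Socs2, a brake on growth hormone signalling, was -1.14 in CUMS 1 to 3 (SE 0.56, limma adjusted p = 0.749).

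Among 15 tested genes of the receptor complex and its coregulators, 0 were called. At an unadjusted limma p under 0.05, 1 was lower in CUMS 1 to 3, and 2 were higher and 1 lower in CUMS 4 to 6. Of all probe sets, 6.76% and 6.28% passed in these comparisons in either direction. Stub1, a ubiquitin ligase that acts with Hsp90 and Hsp70, read 1348, 1479 and 1469 in control, 1204, 1107 and 1238 in CUMS 1, 2 and 3, and 1146, 1031 and 1188 in CUMS 4, 5 and 6. All 6 CUMS rats lay below all 3 controls, where 3.68% of all probe sets had no overlap in either direction, and the log2 difference was -0.28 and -0.35 (SE 0.11 each, limma adjusted p = 0.733 and 0.744). Hsp90ab1, the chaperone that holds the unliganded receptor, was 0.21 higher in CUMS 4 to 6 (SE 0.09, limma adjusted p = 0.778).

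Of 12 tested bHLH-PAS relatives, 0 were called. At an unadjusted limma p under 0.05, 1 was higher in CUMS 4 to 6 and 0 in CUMS 1 to 3, against 6.28% and 6.76% of all probe sets in either direction. The clock gene Arntl read 113, 213 and 221 in control, 205, 120 and 240 in CUMS 1, 2 and 3, and 304, 274 and 276 in CUMS 4, 5 and 6, which put all 3 of the last group above the other 6. Of all probe sets, 11.6% had no overlap between CUMS 4 to 6 and control and 9.11% between the CUMS groups. Its log2 difference in that group was 0.71 (SE 0.31, limma adjusted p = 0.779). Npas2, its clock relative, was -0.59 in CUMS 1 to 3 and 0.68 in CUMS 4 to 6 (limma adjusted p = 0.778 and 0.782). The hour at which a liver was taken is not given per rat in the sources used here.

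Of the 5 genes that pass electrons to P450 enzymes, 0 were called. At an unadjusted limma p under 0.05, 0 passed in CUMS 1 to 3 and 1 in CUMS 4 to 6, against 6.76% and 6.28% of all probe sets. Por, the reductase that all microsomal P450 enzymes need, was 0.57 in CUMS 1 to 3 (SE 0.26, limma adjusted p = 0.745) and -0.03 in CUMS 4 to 6, and its lowest signal, 1166, was in control 3. Among 10 tested tryptophan and kynurenine enzymes 0 were called. Some products of this pathway are ligands of the receptor, but not every listed enzyme makes one. At an unadjusted limma p under 0.05, 1 was higher in CUMS 4 to 6, where 6.28% of all probe sets passed. That was Kynu, at 0.41 (SE 0.18, limma adjusted p = 0.779). In CUMS 4 to 6, 10 of the 10 enzymes lay above control, where 46.3% of all probe sets did. Their median log2 difference was 0.20. Without control 3 it was 0.06, with 9 of 10 above control against 47.8% of all probe sets. In CUMS 1 to 3, 7 of 10 lay above control with a median of 0.06, which turned to 3 of 10 and -0.06 without control 3. Over all probe sets the shares above control were 48.9% there and 49.7% without control 3. Of 12 tested hypoxia targets, 0 were called and 1 was higher at an unadjusted limma p under 0.05 in CUMS 1 to 3, where 6.76% of all probe sets passed. That gene was Vegfa, at 0.37 in CUMS 1 to 3 (SE 0.13, limma adjusted p = 0.722).

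Cyp1a2 is a gene of the hepatocytes near the central vein, so genes of both ends of the lobule were set beside it. 0 of 12 tested perivenous genes were called, and 12 of 12 lay above control in CUMS 4 to 6, where 46.3% of all probe sets did, with a median of 0.28. In CUMS 1 to 3, 9 of 12 lay above control with a median of 0.16, against 48.9% of all probe sets. Without control 3 that was 8 of 12 with a median of 0.06, against 49.7%. At an unadjusted limma p under 0.05, 2 were higher in CUMS 1 to 3 and 3 in CUMS 4 to 6, where 6.76% and 6.28% of all probe sets passed in either direction. Without control 3 and CUMS 6 the count above control in CUMS 4 to 6 was 8 of 12, against 46.9% of all, and the median 0.17. CUMS 6, the liver with the highest Cyp1a2, read highest of the 9 arrays in 6 of these 12, namely Cyp2e1, Slc1a2, Cyp7a1, Rnase4, Lect2 and Cyp27a1, against 10.1% of all probe sets tested. Its mean log2 signal over the list lay 0.68 above the mean of the controls, and that of the other arrays between -0.07 and 0.36. Cyp7a1, the rate-limiting enzyme of bile acid synthesis, read 19331 in CUMS 6 and between 4835 and 13097 elsewhere.

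Of 13 tested periportal genes, 0 were called and 1 was higher at an unadjusted limma p under 0.05 in CUMS 4 to 6, where 6.28% of all probe sets passed. CUMS 6 was highest in 2 of these 13, in 3 of 7 general hepatocyte markers and in 2 of 5 electron donors, against 10.1% of all probe sets tested. For the periportal genes its mean log2 signal lay 0.13 above the mean of the controls, within the range of the other arrays (-0.44 to 0.30). 11 of 13 periportal genes lay above control in CUMS 4 to 6, with a median of 0.12, and so did 7 of 7 general hepatocyte markers. Over all probe sets 46.3% did. Without control 3 and CUMS 6 it was 6 of 13 periportal genes in CUMS 4 to 6, with a median of -0.01, against 46.9%. In CUMS 1 to 3, 7 of 13 periportal genes lay above control with a median of 0.05, against 48.9% of all probe sets. Without control 3 that was 2 of 13 with a median of -0.11, against 49.7%. Tbx3, a transcription factor of perivenous cells, was 0.70 and 0.71 higher in CUMS 1 to 3 and CUMS 4 to 6 (SE 0.24 each, limma adjusted p = 0.722 and 0.744). Its signal was 276 to 332 in control and 380 to 731 in the CUMS rats, which did not overlap, as in 3.68% of all probe sets. The part of lobule position in the Cyp1a2 values was not tested.

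**Figure D5:**
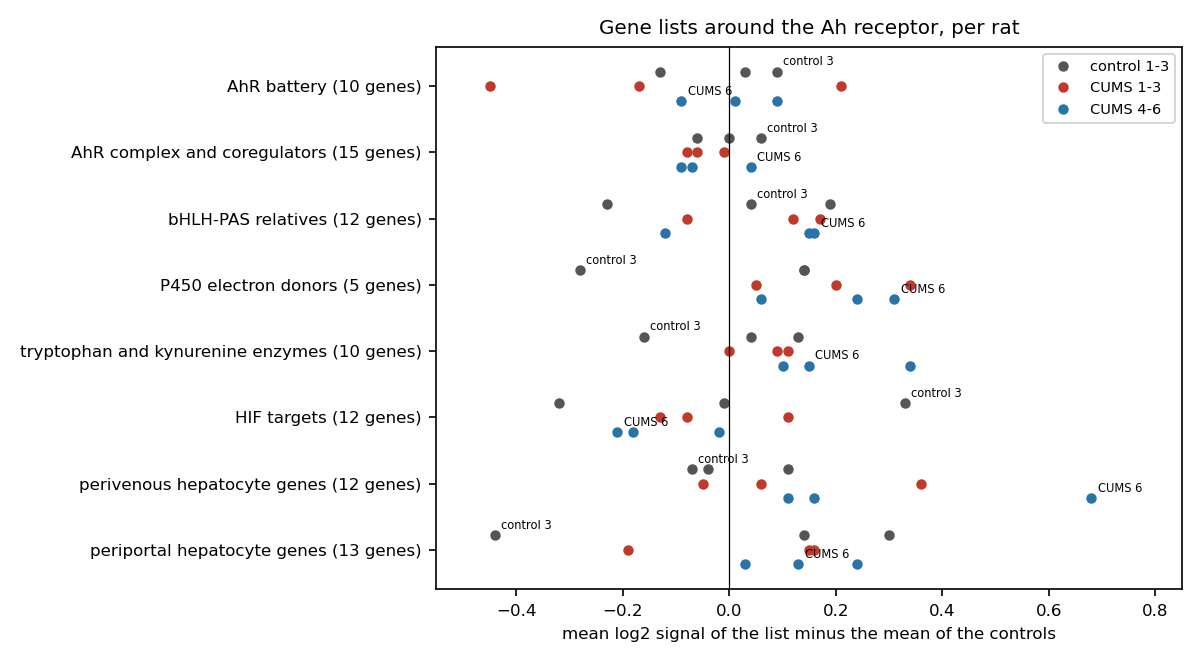
Mean log2 signal of 8 gene lists relative to the mean of the controls (horizontal), with 1 point per rat coloured by group and control 3 and CUMS 6 named. The 10 tested genes of the Ah receptor battery show no separation of the groups. Ugt1a6, Ugt1a7c, Gsta2, Ahrr and Aldh3a1 are not among them. CUMS 6 stands apart in the perivenous list (0.68).

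The genes whose log2 signal was most like that of Cyp1a1 over the 9 livers, among 14146 other named probe sets, were Mccc2, an enzyme of leucine breakdown (r = 0.975, rho = 0.97), Ndrg2 (r = 0.955, rho = 0.82) and Fuca2, a fucosidase (r = 0.943, rho = 0.85). Their range was far narrower than that of Cyp1a1. Mccc2 read 3572, 3526 and 3051 in control 1, 2 and 3, 3745, 3930 and 3432 in CUMS 1, 2 and 3, and 4196, 3709 and 4268 in CUMS 4, 5 and 6. It was lowest in control 3 and highest in CUMS 6 and CUMS 4, as Cyp1a1 was. Most like Cyp1a2 were Akr1c14, which acts on steroids (r = 0.956, rho = 0.95), Iah1 (r = 0.937, rho = 0.87) and Gcat, an enzyme of threonine breakdown (r = 0.927, rho = 0.78). Akr1c14 read 17136 in CUMS 6 and between 11414 and 14041 in the other livers. These correlations are a description over 9 arrays, chosen as the highest of many.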

How the data were processed

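RNA from 9 livers was extracted with TRIzol, cleaned, amplified and hybridised to Affymetrix rat arrays, 1 per rat. Values deposited by the authors are linear MAS 5.0 signal intensities with a trimmed mean of 500.2 in each array. Control probe sets (57) were dropped, 586 signals under 1 were raised to 1, and log2 was taken. Symbols came from the platform annotation, and 20826 probe sets had 1 symbol, 436 several and 9780 none. Probe sets in the bottom 40% of mean log2 signal (under 6.07) were dropped, and 18625 remained.

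The 3 groups were fitted together in limma 3.58.1 (R 4.3.3, 6 residual degrees of freedom, variance trend) with Benjamini-Hochberg adjustment over all 18625. The script was tested on simulated data. Alternatives changed the scaling, filter, transformation, variance model, test and arrays. For arrays, their number limits the precision. The p-values measure the spread between rats. The 6 genes, lists and tests were chosen with earlier results of these data known. From each list, up to 3 genes per comparison with the lowest unadjusted p were open to naming, besides genes a result turned on. For Cyp1a1 and Cyp1a2, the 3 genes with the highest Pearson correlation were named. Where a gene had several probe sets, the one with the highest mean stood for it in lists and correlations.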

Additional observations from a re-analysis of the deposited data

Results flagged for a closer look

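Among the 6 CUMS rats, 8 probe sets were checked at both ends on the linear and the log2 scale, 32 checks in all, for a value whose gap to its nearest neighbour took up more than 0.625 of the range. Chance flags about 1 in 20 groups. The Cyp1a2 signal of CUMS 6 (30406) was far from the others, with a gap of 0.694 of the range, and it was within the limit on the log2 scale. The Cyp1b1 signal of CUMS 2 (98.9) was far from the other CUMS rats at 0.732 on the linear and 0.683 on the log2 scale, and CUMS 2 was also the array with the highest beta-actin 3′ to 5′ ratio (5.23). The part of RNA quality in that value was not tested.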

How the results depend on the processing

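With 3 rats per group, 0 probe sets were called by limma in each of the 4 comparisons. 1 probe set was called by the test that the methods name for CUMS 1 to 3 against control, and 1 each after centring on the median for CUMS 4 to 6 and for all CUMS against control. None of these was a member. Cyp1a1 stayed above control under all alternatives run, from 0.36 to 1.39 (log2) in CUMS 1 to 3 from 0.87 to 2.41 in CUMS 4 to 6 and from 0.61 to 1.84 in all CUMS rats. The difference of Cyp1b1 from control turned positive without control 3, and that of Cyp1a2 in CUMS 4 to 6 turned negative without CUMS 6. That of Arnt in CUMS 4 to 6 turned positive without CUMS 4. The alternative without control 3 and CUMS 6 together was chosen after seeing the data. The replicate numbers that control 1 to 3 and CUMS 1 to 3 share did not pair the rats (correlations of their deviations 0.00296, -0.0486 and 0.14). A fit with the replicate block gave 0 calls. With equal groups a block cannot move a difference (Cyp1a1 0.96), but it brought 1 member, Cyp1a1, to an unadjusted limma p under 0.05 for CUMS 1 to 3, with 1361 probe sets in all there against 1259 without the block. The Cyp1a2 difference of 0.06 in CUMS 1 to 3 changed sign under 4 of 17 alternatives. Mean log2 signals of Cyp1b1, Arnt and Ahr 1369146_a_at were the closest of the 7 to the filter, and no detection calls were used here.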
